A study of Mus musculus with 4 samples.

Results

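Immediate early genes are transcribed within minutes of a stimulus, without prior protein synthesis, and 10 of them were followed here in epididymal white adipose tissue, a visceral fat depot that lies along the epididymis in male mice. The 10 genes were Fos, Fosb, Jun, Junb, Egr1, Egr2, Atf3, Ier2, Nr4a1 and Dusp1, taken by symbol from a table of 39179 genes, and each symbol matched 1 row. All 10 passed a filter of a mean of 10 or more normalized counts, together with 16710 genes in all. The groups were 2 libraries labelled as Nck2 knockout (KO, genotype given as Nck2 mutant) and 2 libraries labelled wild-type (WT), all of mixed genetic background and with polyadenylated RNA. Nck2 encodes an adaptor protein that couples tyrosine-phosphorylated receptors to the actin cytoskeleton. The sources used here give neither the altered part of the gene nor the age of the mice. The labels also do not say that the replicates came from separate animals, so p-values measure only the spread between these libraries, which may be technical.

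Serum, growth factors, stress kinases and calcium or cyclic AMP signals reach these genes through MAP kinases, the serum response factor SRF with its ETS partners, and CREB bound at cyclic AMP response elements (CRE). The products include subunits of AP-1, a dimer of Fos and Jun type proteins, zinc finger factors of the Egr family, the orphan nuclear receptor Nr4a1 and feedback inhibitors such as Dusp1, which dephosphorylates MAP kinases. They are also known to be induced by tissue handling. In adipose tissue, AP-1 and Egr factors are expressed by adipocytes, vascular cells and leukocytes alike.

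The libraries held 33880872 to 37980391 reads in KO and 31831904 to 34056187 in WT. Nck2 itself had 1076 and 947 normalized counts in KO replicates 1 and 2, against 1279 and 1667 in WT replicates 1 and 2, and its difference missed the threshold (limma adjusted p = 0.0509). It passed with a pseudocount of 5 (adjusted p = 0.0495), when scaled to the library total (0.027) and with DESeq2 (0.0184). The labelled tissue was checked against mature adipocyte markers, which were abundant in every library and of which 9 of 14 were higher in KO. Their summed share was 5.45% to 5.56% of KO reads, against 1.76% to 2.54% of WT reads. Of 12 tested epididymis and male tract markers 7 were lower in KO, and the 16 listed took 0.000289% to 0.000345% of KO reads, against 1.08% to 1.24% of WT reads. Crisp3, Lcn5, Lcn8, Lcn9, Defb20, Spag11a and Svs4 had 0 reads in both KO libraries, which allows up to 3 reads in each. Smooth muscle markers were lower in KO for 9 of 10 and took 0.0734% to 0.0825% of KO reads, against 1.37% to 1.85% of WT reads. Macrophage markers were higher in KO for 9 of 10 (0.121% to 0.139% of KO reads, against 0.0688% to 0.0692% of WT reads), and endothelial markers for 7 of 10 (0.151% to 0.165% of KO reads, against 0.0945% to 0.113% of WT reads). By limma, erythroid markers were higher for 5 of 7 and lower for 1, and mesothelium markers were lower for 3 of 8. Progenitor and fibroblast markers were higher for 2 of 10, neutrophil markers for 1 of 6, and T and B cell markers for 1 of 10. Skeletal muscle markers were higher for 1 and lower for 1 of 8. Over all tested genes, 22.4% were called higher and 24.4% lower. The shares of progenitor and fibroblast, neutrophil, T and B cell and skeletal muscle markers did not exceed these. Of the most abundant marker of the leading lists, Car3 of adipocytes had 537361 and 577628 normalized counts in KO, against 251590 and 158045 in WT, and did not pass (limma adjusted p = 0.0594), whereas it passed with no filter (0.026), when scaled to the library total (0.0423), with edgeR (0.0264) and with DESeq2 (1.55e-08). Crisp1, an epididymal secretory protein, had 108 and 93.7 in KO, against 343811 and 334537 in WT, and Myh11 of smooth muscle had 2282 and 3267 in KO, against 159714 and 229497 in WT. Lyz2 of macrophages had 20834 and 17622 in KO, against 9026 and 8793 in WT. These differences in cell content accompany every comparison that follows, and their part in it was not tested. In bulk tissue, fewer cells of a type and less RNA per cell cannot be told apart.

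As a group the 10 genes did not move together. Fos, Atf3 and Jun were higher in KO and Egr2 was lower, while Fosb, Junb, Egr1, Ier2, Nr4a1 and Dusp1 did not pass a Benjamini-Hochberg adjusted p of 0.05 in limma. Thus 3 of 10 were called higher, where 22.4% of all tested genes were, and 1 of 10 was called lower, where 24.4% of all tested genes were. On 10 genes, counts this small cannot set either share apart from that background. With edgeR the counts were 3 higher and 1 lower (21.0% and 24.4% of all tested genes), and with DESeq2 3 higher and 2 lower (21.1% and 23.5%). The median log2 fold change of the 10 genes was 0.21, against -0.01 over all tested genes. Both KO libraries lay above both WT libraries for Fos, Jun, Atf3 and Dusp1 (4 of 10, against 38.9% of all tested genes). They lay below both WT libraries for Junb, Egr2 and Nr4a1 (3 of 10, against 40.6%). The groups overlapped for Fosb, Egr1 and Ier2. A normalized count is a read count over the library's size factor. Each fold change is the KO mean less the WT mean of log2(normalized count + 1), given with a standard error (SE), and means are given ± SD with n = 2 libraries. Fits that left out 1 library had fewer degrees of freedom, and fewer of all tested genes were called in them. A call lost in such a fit is therefore not particular to that gene.

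**Figure D1:**
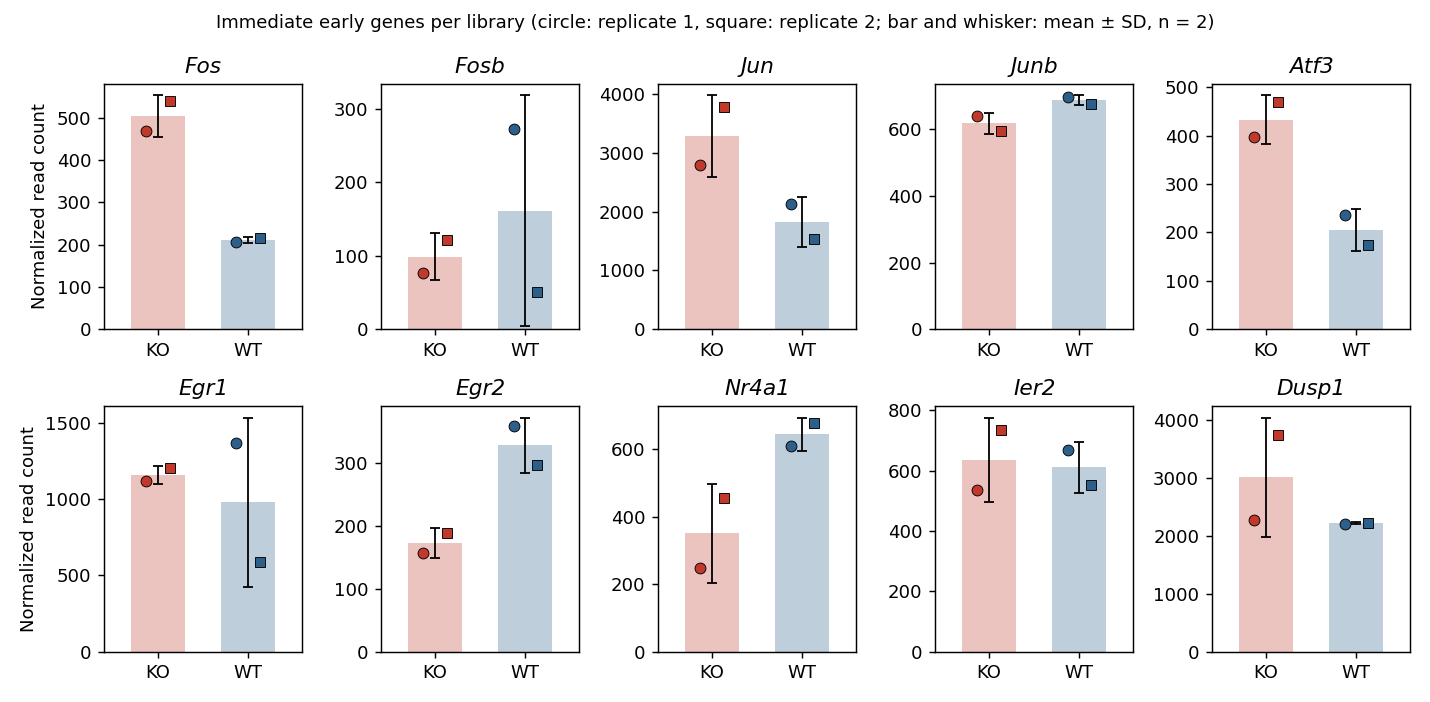
Normalized read count of each immediate early gene in the KO libraries (left of each panel, red) and the WT libraries (right, blue); points are libraries, bars and whiskers are the mean ± SD of n = 2. Fos, Jun, Atf3 and Dusp1 have both KO points above both WT points, and Junb, Egr2 and Nr4a1 have both KO points below. The WT points of Fosb lie at 272 and 50.2.

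Fos, the founding subunit of AP-1 (GRCm38 chromosome 12, 85473890 to 85477273, plus strand), had 469 and 539 normalized counts in KO replicates 1 and 2, against 206 and 216 in WT replicates 1 and 2. Replicates differed 1.15-fold in KO and 1.05-fold in WT, and the lowest KO value was 2.18-fold the highest WT value. The mean was 504 ± 49.2 in KO and 211 ± 7.1 in WT, a log2 fold change of 1.25 (SE 0.12, 95% interval 0.92 to 1.58, limma adjusted p = 0.0031). Leaving out WT replicate 1 gave 1.22 (adjusted p = 0.0571) and leaving out WT replicate 2 gave 1.29 (0.0649), in fits with fewer degrees of freedom.

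Jun, the main dimer partner of Fos in AP-1 (chromosome 4, 95049034 to 95052222, minus strand, 1 exon), was the most abundant of the 10 by normalized count in KO. It had 2784 and 3770 in KO replicates 1 and 2, against 2129 and 1528 in WT replicates 1 and 2. The groups did not overlap, but replicates of each group differed 1.35-fold in KO and 1.39-fold in WT. Jun rose by 0.85 on the log2 scale (SE 0.23, 95% interval 0.23 to 1.46, limma adjusted p = 0.0403). This call did not hold with the replicate block (limma adjusted p = 0.0819). It also did not hold without KO replicate 2 (log2 fold change 0.626), without WT replicate 1 (1.084) or without WT replicate 2 (0.605). An antisense gene, Junos, overlaps 232 exonic bases of Jun and had 19 to 42 reads, and the sources used here do not say how strand was counted.

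Atf3, a stress-induced bZIP factor that dimerizes with Jun proteins (chromosome 1, 191170296 to 191218039, minus strand), had 397 and 469 normalized counts in KO replicates 1 and 2, against 236 and 175 in WT replicates 1 and 2. Its lowest KO value was 1.68-fold its highest WT value. The log2 fold change was 1.08 (SE 0.20, 95% interval 0.55 to 1.61, limma adjusted p = 0.0144). The call was lost without KO replicate 2 (log2 fold change 0.963), WT replicate 1 (1.298) or WT replicate 2 (0.865).

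Fosb and Junb are further AP-1 subunits and did not pass. Fosb (chromosome 7, 19302696 to 19310051, minus strand) had 75.9 and 122 normalized counts in KO replicates 1 and 2, against 272 and 50.2 in WT replicates 1 and 2. The WT libraries thus enclosed both KO libraries. They differed 5.33-fold, and only 0.8% of tested genes had a larger difference between the WT replicates. The log2 fold change of -0.29 (SE 0.86) had a 95% interval of -2.61 to 2.04. It was 0.05 without KO replicate 1 and 0.92 without WT replicate 1. Junb (chromosome 8, 84974484 to 84978718, minus strand) had 641 and 596 in KO replicates 1 and 2, against 698 and 677 in WT replicates 1 and 2, with replicates 1.08-fold apart in KO and 1.03-fold in WT. Both KO values were below both WT values, and the log2 fold change was -0.15 (95% interval -0.38 to 0.07, limma adjusted p = 0.202). Junb shares 173 exonic bases with Prdx2 on the other strand, which had 3993 to 4855 reads.

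Egr2, a zinc finger factor (chromosome 10, 67535475 to 67542188, plus strand), was the gene called lower. It had 156 and 190 normalized counts in KO replicates 1 and 2, against 360 and 298 in WT replicates 1 and 2. The lowest WT value was 1.57-fold the highest KO value, and replicates of each group differed 1.21-fold. Egr2 fell by 0.92 on the log2 scale (SE 0.18, 95% interval -1.39 to -0.45, limma adjusted p = 0.016). The call was lost without WT replicate 1 (log2 fold change -0.786) and without WT replicate 2 (-1.057). In those 2 fits most calls over all tested genes were lost as well.

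Egr1, the related factor usually induced together with Fos (chromosome 18, 34859823 to 34864984, plus strand), had 1115 and 1201 normalized counts in KO replicates 1 and 2, against 1369 and 584 in WT replicates 1 and 2. Both KO values fell between the WT values, which differed 2.34-fold, and 3.14% of tested genes differed more between the WT replicates. The log2 fold change was 0.37 (95% interval -0.77 to 1.51, limma adjusted p = 0.506), and the interval holds changes of either sign. It was 0.98 without WT replicate 1 (adjusted p = 0.043) and -0.24 without WT replicate 2 (adjusted p = 0.188), so a direction for Egr1 rests on which WT library is used.

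Nr4a1, an orphan nuclear receptor induced by cyclic AMP and calcium (chromosome 15, 101254269 to 101274795, plus strand), had 247 and 455 normalized counts in KO replicates 1 and 2, against 610 and 679 in WT replicates 1 and 2. Both KO values were below both WT values, but the KO replicates differed 1.84-fold, the widest KO gap of the 10 genes. The log2 fold change was -0.94 (SE 0.31, 95% interval -1.78 to -0.09) and missed the threshold (limma adjusted p = 0.0703). Other fits put it past the threshold, namely DESeq2 on recovered reads (-0.89, adjusted p = 0.0259), scaling to the library total (-1.13, 0.0285), the replicate block (-0.94, 0.0499) and leaving out KO replicate 2 (-1.38, 0.00973). In the authors' deposited table the log2 fold change of Nr4a1 was -0.86, with an adjusted p of 0.0259. That deposited table also held Fos, Jun and Atf3 as higher and Egr2 as lower, at adjusted p-values of 2.16e-08, 0.00219, 0.000288 and 0.00178, where 18.8% of its genes with an adjusted p were higher and 21.7% lower.

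Dusp1, the MAP kinase phosphatase of the set (chromosome 17, 26505590 to 26562128, minus strand), had 2282 and 3739 normalized counts in KO replicates 1 and 2, against 2203 and 2229 in WT replicates 1 and 2. The WT libraries were nearly equal, KO replicate 1 was 1.02-fold the higher of them, and KO replicate 2 stood apart. The log2 fold change was 0.40 (95% interval -0.27 to 1.07, limma adjusted p = 0.248), 0.04 without KO replicate 2 and 0.75 without KO replicate 1 (adjusted p = 0.0107). Dusp1 shares 11 exonic bases with Ergic1 on the other strand. Ier2, a nuclear protein of the early serum response (chromosome 8, 84661331 to 84662852, minus strand, 1 exon), had 536 and 734 in KO replicates 1 and 2, against 669 and 552 in WT replicates 1 and 2. The groups overlapped fully, and the log2 fold change of 0.05 (95% interval -0.48 to 0.57, limma adjusted p = 0.862) turned to -0.15 when levels were scaled to the library total, a choice that moves the median of all genes to -0.2.

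**Figure D2:**
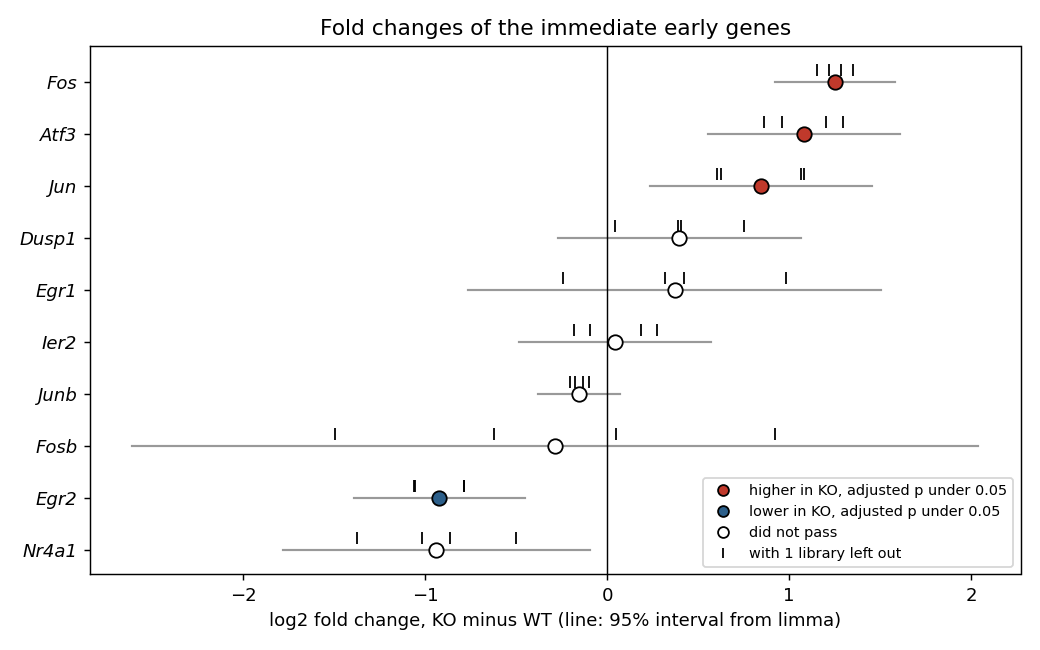
Log2 fold change (x axis, KO minus WT) of each immediate early gene (rows) with its 95% interval from limma; filled points passed an adjusted p of 0.05, and ticks above each point are the 4 fits that leave out 1 library. Ticks of Fos lie between 1.15 and 1.35, whereas those of Fosb run from -1.49 to 0.92 and cross 0.

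The difference between the KO replicates was above the median of all tested genes for 8 of the 10 genes, all but Junb and Egr1, and that between the WT replicates for 7 of 10, all but Fos, Junb and Dusp1. The median difference between the KO replicates was 1.28-fold over the 10 genes and 1.11-fold over all tested genes, and between the WT replicates it was 1.21-fold and 1.10-fold. In KO, replicate 2 exceeded replicate 1 for 9 of the 10 genes, all except Junb, where 53.1% of all tested genes did so. The KO replicates also differed in mesothelium markers, which took 0.0657% of reads in replicate 1 and 0.012% in replicate 2, and in skeletal muscle markers, at 0.00278% and 0.0168%, and the part of these in the direction was not tested. KO replicate 2 was also the higher one for 30 of 39 other immediate early genes (76.9%), 13 of 17 MAP kinase phosphatases and feedback inhibitors (76.5%), 28 of 39 upstream kinases and transcription factors (71.8%) and 8 of 13 other AP-1 family genes (61.5%). It was the higher one for 9 of 20 secondary response genes and 7 of 15 heat shock genes (46.7%). The median log2 difference, replicate 2 less replicate 1, was 0.357 for the 10 genes, 0.277 for other immediate early genes and 0.199 for phosphatases and feedback inhibitors. For upstream genes it was 0.04 and for other AP-1 genes 0.051, against 0.016 over all tested genes. In WT, replicate 1 exceeded replicate 2 for 7 of the 10 genes, where 49.7% of all tested genes did so, and for 18 of 39 other immediate early genes (46.2%), 16 of 20 secondary response genes and 3 of 15 heat shock genes. The WT libraries also differed in seminal vesicle transcripts. WT replicates 1 and 2 had 11518 and 7 reads of Svs4, 10940 and 1 of Svs5, and 11861 and 68 of Svs2. The part of that difference in the WT values of Fosb and Egr1 was not tested.

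Ratios between genes of the same library do not depend on scaling, and a few were formed after the values were seen. Reads of Fos over reads of Egr2 came to 3.0 and 2.84 in KO replicates 1 and 2, against 0.57 and 0.73 in WT replicates 1 and 2. Fos over Nr4a1 was 1.90 and 1.18 in KO, against 0.34 and 0.32 in WT. Dusp1 over Nr4a1 was 9.22 and 8.21 in KO, against 3.61 and 3.28 in WT. Atf3 over Jun was 0.143 and 0.124 in KO, against 0.111 and 0.114 in WT. Fos over Fosb was 6.19 and 4.43 in KO, against 0.76 and 4.30 in WT. Fos over Jun was 0.169 and 0.143 in KO, against 0.097 and 0.141 in WT. Both KO values lay above both WT values in each of these pairs, by a wide margin for the ratios to Egr2 and Nr4a1 and by a narrow one for the ratios to Jun and Fosb. The ratios to Egr2 and Nr4a1 set genes with higher KO values over genes with lower ones, so their separation follows from the choice. Fos also stands in several of the pairs. Since all pairs and their order were chosen with the values known, no conclusion is drawn from their common direction. No share was computed for other gene pairs. Of single tested genes, 38.9% had both KO values above both WT values and 40.6% had both below, which is not a rate for chosen ratios.

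Levels of different genes were compared as normalized counts per exonic kilobase. The length joins all annotated exons of a gene, 6.24 kb for Fosb and 2.35 kb for Fos. A gene whose expressed transcript is shorter than that is understated, and the transcripts in use were not determined. In KO, Jun (1028 ± 219) and Dusp1 (909 ± 311) led and overlapped each other. Ier2 (417 ± 92.1), then Junb (269 ± 13.8) and Egr1 (258 ± 13.5), which overlapped, came next, and below them Fos (214 ± 20.9) and Atf3 (201 ± 23.4), which also overlapped. Nr4a1 (100 ± 41.9), Egr2 (50.9 ± 6.9) and Fosb (15.8 ± 5.2) were lowest per kilobase. In WT the order was Dusp1 (669 ± 5.7), Jun (573 ± 133), Ier2 (401 ± 54.7), Junb (299 ± 6.3), Egr1 (218 ± 124), Nr4a1 (184 ± 13.9), Egr2 (96.7 ± 12.9), Atf3 (95.5 ± 20.2), Fos (89.6 ± 3.0) and Fosb (25.8 ± 25.1). There Dusp1 and Jun overlapped, as did Junb with Egr1, Egr1 with Nr4a1, and Egr2 with Atf3 and Atf3 with Fos. Fos thus stood sixth per kilobase in KO and ninth in WT, and Nr4a1 eighth in KO and sixth in WT.

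The same scale shows the make-up of each factor family. Fos was 44.9% and 40.0% of the Fos family sum in KO replicates 1 and 2, against 23.6% and 23.8% in WT replicates 1 and 2. Fosl2, another Fos relative, was most of the rest, at 50.8% and 55.8% in KO and 62.7% and 73.6% in WT, and its own log2 fold change was 0.07 (limma adjusted p = 0.803). Within the Jun family, Jun was 30.5% and 34.9% in KO against 26.4% and 20.3% in WT, and Jund made up 59.8% and 57.5% against 61.6% and 67.2%. Egr2 was 15.3% and 16.9% of the Egr family in KO, against 25.4% and 39.7% in WT, with Egr1 most of the remainder and Egr4 without a read in any library. The WT shares also depend on Egr1, which had 305 per kilobase in WT replicate 1 and 130 in WT replicate 2. Egr2 itself had 106 and 87.6 there. Nr4a1 was 58.1% and 69.6% of its family in KO and 67.4% and 62.8% in WT, so its share overlapped between the groups. Its relatives Nr4a2 and Nr4a3 had log2 fold changes of -0.90 and -0.80, and neither passed (limma adjusted p = 0.0545 and 0.0974).

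**Figure D3:**
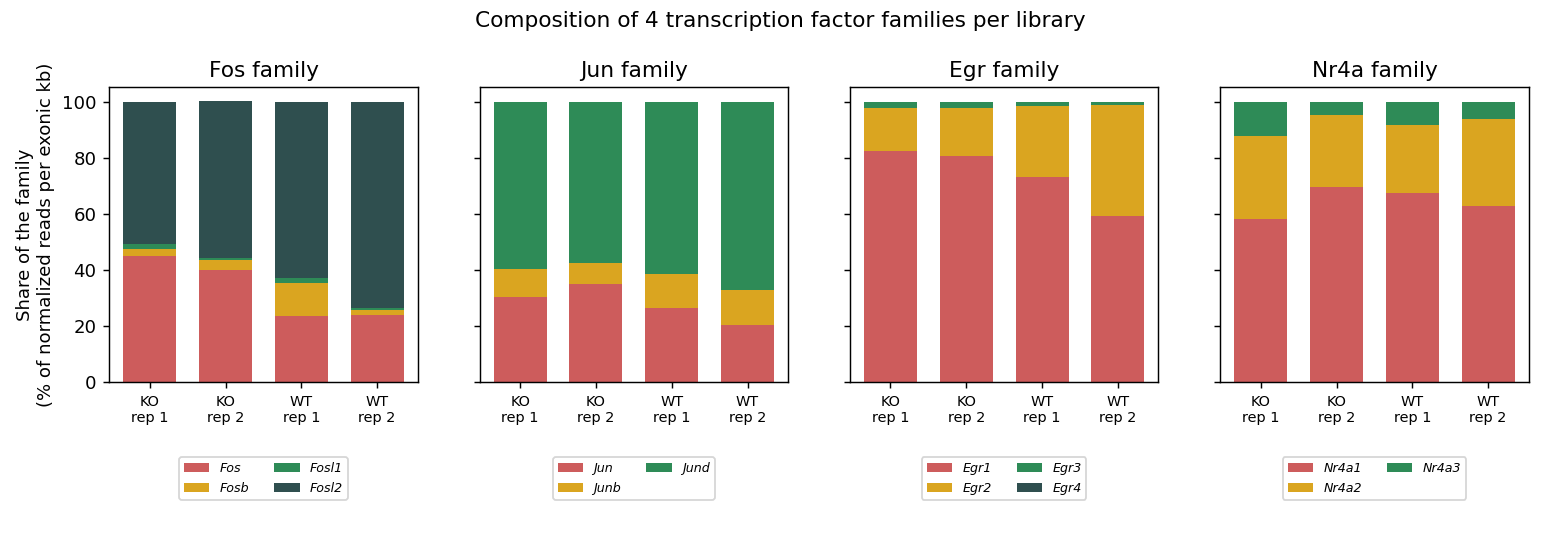
Share of each member (stacked colours) in the normalized reads per exonic kilobase of its family (y axis, %), for KO and then WT libraries. The Fos share is 40.0% to 44.9% in KO and 23.6% to 23.8% in WT, and the Egr2 share is 15.3% to 16.9% in KO and 25.4% to 39.7% in WT. The Egr2 share also depends on Egr1, whose WT values differ 2.34-fold.

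Promoters were read for response elements, since SRF and CREB are the textbook routes to these genes. The RefSeq starts used here (GRCm38.p6) covered 8 of the 10 genes, all but Egr1 and Ier2. The 250 bases before each start were searched on both strands for the CRE (TGACGTCA), its short form (TGACG, which the full CRE contains), the AP-1 site (TGANTCA), the CArG box bound by SRF, the Egr site (GCGNGGGCG) and a TATA box (TATAAA). Only exact matches were counted. Sites farther upstream were not searched, so a gene without a match here may still have such a site. Shown are the windows of the 3 genes called higher, of Egr2 and of Nr4a1, in lower case with matches in capitals, at chr12:85473640-85473889 (plus strand) for Fos, chr1:191183334-191183583 (minus) for Atf3, chr4:95052223-95052472 (minus) for Jun, chr10:67537619-67537868 (plus, the most upstream of a group of nearby starts that share these matches) for Egr2 and chr15:101266596-101266845 (plus) for Nr4a1.
Fos: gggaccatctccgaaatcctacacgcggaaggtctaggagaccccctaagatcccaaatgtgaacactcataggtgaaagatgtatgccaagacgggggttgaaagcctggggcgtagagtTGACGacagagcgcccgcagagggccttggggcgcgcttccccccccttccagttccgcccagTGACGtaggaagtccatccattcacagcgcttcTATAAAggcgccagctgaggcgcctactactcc
Atf3: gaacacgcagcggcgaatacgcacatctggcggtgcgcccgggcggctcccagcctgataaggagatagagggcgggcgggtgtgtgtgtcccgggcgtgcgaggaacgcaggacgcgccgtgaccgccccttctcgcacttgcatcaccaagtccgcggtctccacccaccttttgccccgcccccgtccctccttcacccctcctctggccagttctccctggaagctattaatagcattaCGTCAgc
Jun: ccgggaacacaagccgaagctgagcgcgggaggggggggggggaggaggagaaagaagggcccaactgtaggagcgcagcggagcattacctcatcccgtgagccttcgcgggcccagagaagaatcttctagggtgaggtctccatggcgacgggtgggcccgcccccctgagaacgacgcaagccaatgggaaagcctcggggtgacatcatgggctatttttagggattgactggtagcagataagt
Egr2: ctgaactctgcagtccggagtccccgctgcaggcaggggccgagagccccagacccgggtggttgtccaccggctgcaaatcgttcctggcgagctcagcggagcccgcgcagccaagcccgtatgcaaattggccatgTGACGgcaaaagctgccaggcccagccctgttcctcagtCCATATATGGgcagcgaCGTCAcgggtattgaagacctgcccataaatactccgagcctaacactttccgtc
Nr4a1: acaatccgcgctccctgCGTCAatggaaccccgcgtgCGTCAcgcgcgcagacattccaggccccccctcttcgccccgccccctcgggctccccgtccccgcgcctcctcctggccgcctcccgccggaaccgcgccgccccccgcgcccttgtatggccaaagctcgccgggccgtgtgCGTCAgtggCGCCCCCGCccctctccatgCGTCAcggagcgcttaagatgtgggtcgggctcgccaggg

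The Fos window held TGACG 129 and 66 bases before the start and a TATA box, and the Atf3 window held TGACG 7 bases before it, read on the other strand and inside the 7 bases of this window that GENCODE M21 places in an Atf3 exon. Egr2 held a CArG box with TGACG on either side of it, and Nr4a1 held TGACG 4 times and an Egr site. The Jun window held no exact match to any of these patterns. It did hold TGACATCA, which is 1 base away from the full CRE and was not counted. Dusp1 was the gene with a full CRE, and Fosb and Junb each held the short form. The short form was thus in a window of 7 of the 8 genes and in 17.8% of all 32851 windows, the CArG box in 1 of 8 and 1.47%, the full CRE in 1 of 8 and 1.55%, the Egr site in 2 of 8 and 4.7%, the TATA box in 1 of 8 and 12.4%, and the AP-1 site in none of the 8 and 6.75%. Egr2 entered with 5 windows, the others with 1 each. Matches to TGACG were present in genes higher in KO (Fos, Atf3) and in genes lower in KO or with both KO libraries lower (Egr2, Nr4a1, Junb). With a match in 7 of the 8 genes, the presence of these letters could not separate genes by direction, and no conclusion on direction is drawn from it.

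Among 39 other immediate early genes that were tested, 9 rose and 9 fell in KO (23.1% each way, against 22.4% and 24.4% of all tested genes), and their median log2 fold change was 0.09. Ptgs2, the inducible cyclooxygenase, had 104 and 70.3 normalized counts in KO replicates 1 and 2, against 87370 and 143792 in WT replicates 1 and 2, and fell by 10.34 (SE 0.31, limma adjusted p = 0.00055). Npas4, a factor induced by calcium in neurons, had 7.5 and 20.1 in KO against 182 and 253 in WT. Ier3, an early response gene linked to cell survival, had 252 and 192 in KO against 743 and 1088 in WT. Both fell (limma adjusted p = 0.0058 and 0.0049). The call for Npas4 was lost without WT replicate 1 (0.0766) or 2 (0.101), and that for Ier3 without WT replicate 2 (0.0728). Klf4, a zinc finger factor of epithelium and vessels, had 2981 and 2900 in KO against 1786 and 1973 in WT, and rose by 0.65 (SE 0.08, limma adjusted p = 0.0046). The falls of Ptgs2, Npas4 and Ier3 were in the same libraries in which male tract markers made up at most 0.000345% of KO reads and at least 1.08% of WT reads, and the part of that in them was not tested.

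**Figure D4:**
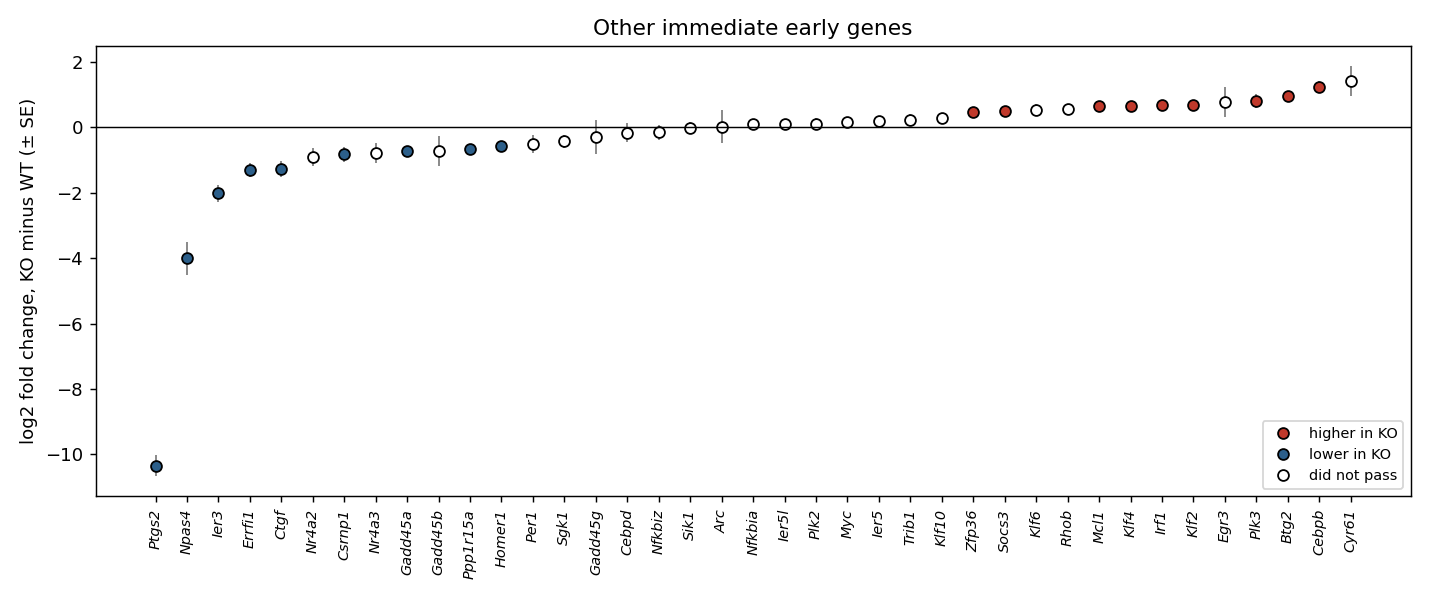
Log2 fold change (y axis, KO minus WT, ± SE) of the 39 other immediate early genes that were tested, sorted from the lowest to the highest; red points were higher in KO, blue points lower and open points did not pass. Ptgs2 lies at -10.34, and 9 genes are called in each direction.

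Of 13 other AP-1 family genes, 6 rose in KO and 1 fell (46.2% and 7.69%, against 22.4% and 24.4% of all tested genes), with a median log2 fold change of 0.56. Jdp2, which represses AP-1 targets as a Jun dimer, had 649 and 692 in KO against 358 and 370 in WT. Maf had 4800 and 4998 in KO against 3145 and 2860 in WT, and Batf3, a factor of dendritic cells, had 104 and 81.5 against 29.5 and 21.4. Jdp2, Maf and Batf3 rose (limma adjusted p = 0.0034, 0.0038 and 0.01), and calls were lost without WT replicate 1 for Jdp2 (adjusted p = 0.0541) and Batf3 (0.0614), and without WT replicate 2 for Jdp2 (0.0616), Maf (0.0539) and Batf3 (0.0905). Macrophage markers were higher in KO for 9 of 10 in the same comparison, and their part in these rises was not tested.

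Of 17 tested MAP kinase phosphatases and feedback inhibitors 6 rose and 2 fell (35.3% and 11.8%, against 22.4% and 24.4% of all tested genes), with a median of 0.11. Dusp10, a phosphatase of the stress kinases p38 and JNK, had 2177 and 2636 in KO against 411 and 306 in WT, and rose by 2.75 (SE 0.18, limma adjusted p = 0.0014). Dusp9, an ERK phosphatase, had 225 and 367 in KO against 41.8 and 46.5 in WT, and also rose. Dusp5, a nuclear ERK phosphatase, had 215 and 118 in KO against 2510 and 4793 in WT, and Dusp14 had 42.2 and 31.2 against 129 and 127. Both fell (limma adjusted p = 0.0031 and 0.0064). Calls were lost without WT replicate 1 for Dusp9 (0.0712) and Dusp14 (0.0783), and without WT replicate 2 for Dusp5 (0.0646), Dusp9 (0.0792) and Dusp14 (0.0888). The relatives of Dusp1 therefore moved in opposite directions while Dusp1 did not pass.

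Of 39 upstream kinases and transcription factors, 11 rose and 7 fell (28.2% and 17.9%, against 22.4% and 24.4% of all tested genes), with a median of -0.06. Mapk3, which encodes ERK1, had 4693 and 4768 in KO against 3078 and 2861 in WT, and rose by 0.67 (SE 0.07, limma adjusted p = 0.0033). Rps6ka3, a kinase downstream of ERK that phosphorylates CREB, had 13846 and 13425 in KO against 6515 and 5257 in WT, and rose by 1.22. Crem, which gives rise to repressors and activators at CRE sites, had 543 and 579 in KO against 4599 and 7750 in WT and fell by 3.41. Mapk13, a p38 isoform, had 17.8 and 14.5 in KO against 311 and 214 in WT and fell by 3.92. Srf, named here after its values were seen because it binds the CArG box, had 1256 and 1351 in KO against 1994 and 2227 in WT and fell by 0.69 (SE 0.09, limma adjusted p = 0.0055), in the comparison in which smooth muscle markers were lower for 9 of 10. Their part in the fall of Srf was not tested. Its ETS partner Elk3, also chosen after the fact, had 2398 and 2751 in KO against 1544 and 1495 in WT and rose by 0.76 (adjusted p = 0.0047 in limma). Calls were lost without WT replicate 2 for Srf (0.0689) and without WT replicate 1 (0.0666) or 2 (0.0836) for Elk3. Scaled to the library total, this list had 5 higher and 16 lower. Of all 16710 tested genes, 2511 were then higher and 5535 lower, and their median log2 fold change was -0.2.

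Secondary response genes, which follow the first wave, rose in 5 of 20 tested and fell in 4 (25% and 20%, against 22.4% and 24.4% of all tested genes), with a median log2 fold change of 0.84. Hmox1, heme oxygenase, had 1351 and 1341 in KO against 664 and 529 in WT and rose by 1.18 (SE 0.13, limma adjusted p = 0.004). Ccnd1, cyclin D1, had 1393 and 1081 in KO against 6308 and 5551 in WT and fell by 2.27 (SE 0.15, limma adjusted p = 0.0014). Plau, urokinase, had 4572 and 5299 in KO against 8563 and 9524 in WT, and Mmp9, a gelatinase, had 329 and 438 against 1127 and 1709. Both fell. The genes named are those with the smallest p and do not stand for the list. Over the list, both KO libraries lay above both WT libraries for 14 of 25 genes and below for 6. Over all tested genes these shares were 38.9% and 40.6%, and the median log2 fold change was -0.01. Calls were lost without WT replicate 1 for Plau (0.0584) and Mmp9 (0.0502), and without WT replicate 2 for Ccnd1 (0.0513), Plau (0.0823) and Mmp9 (0.0797).

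Of 15 heat shock genes, which encode stress-induced and constitutive chaperones, 4 rose and 5 fell (26.7% and 33.3%, against 22.4% and 24.4% of all tested genes), with a median of -0.23. Hspa1a had 152 and 119 in KO against 555 and 689 in WT and fell by 2.19 (SE 0.19, limma adjusted p = 0.0024). Hspa1b, a near-identical copy whose reads may be shared with it, had 311 and 242 in KO against 1219 and 1870 in WT and fell by 2.46. Cryab, a small heat shock protein, had 4787 and 6117 in KO against 1422 and 1827 in WT and rose by 1.75, and Hspd1, a mitochondrial chaperonin, had 7207 and 7210 against 5004 and 4512 and rose by 0.60. Without WT replicate 2 the calls were lost for Hspa1a (0.0637), Hspa1b (0.0573), Cryab (0.0574) and Hspd1 (0.0573), and without WT replicate 1 for Cryab (0.0559).

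The 5 genes outside the set whose centred log2 values over the 4 libraries lay nearest to those of Fos, out of 14030 whose mean reached 50, were Sptbn1, P2ry14, Hspg2, Slc9a3r2 and Nim1. Their root mean square difference from Fos was 0.0155 to 0.0269 on the log2 scale. Sptbn1, a spectrin, had 61887 and 69941 in KO against 27610 and 28441 in WT, and Hspg2, perlecan of the basement membrane, had 39043 and 46605 against 17563 and 18233. Among immediate early genes Atf3 was the nearest to Fos, at rank 679 with a difference of 0.197, followed by Jun at rank 1498 with 0.29 and Dusp1 at rank 3563 with 0.46. Fosb was the farthest, at rank 12108. With 4 libraries this ranking is a description of these samples only.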

How the data were processed

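Polyadenylated RNA of 4 libraries was sequenced as single reads per the labels' protocols, with a TruSeq RNA kit. The submitters' processing notes name CASAVA 1.8, TopHat2 2.0.10, HTSeq 0.5.3, DESeq2 1.4.5 and GRCm38, and the sources used here do not give the strand setting. The authors deposited a signal per gene (reads over a size factor) and a table of their log2 fold changes, p-values and a score (test statistic). Dividing by the value of 1 read gave whole reads for 100% of values within 0.01.

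limma 3.58.1 (R 4.3.3, intensity trend) was fitted to log2(normalized count + 1) of genes whose mean reached 10, Benjamini-Hochberg adjusted over 16710 genes at 0.05. The pseudocount understates changes of low genes. edgeR 4.0.16 and DESeq2 1.42.0 were run on recovered reads, beside other scalings, filters and pseudocounts. Only the limma fit was tested on simulated counts, with an assumed spread and far fewer changed genes than were called here. The other steps were not simulated. Members and lists were chosen with earlier results of these data known. Besides the 10 members, the genes named are up to 4 of each pathway list by smallest p, the marker of highest mean (4 lists shown), the 5 nearest to Fos, Nck2, and, chosen after their values were seen, family members, Srf, Elk3 and the Svs genes. One gene that this rule names is not reported here. Exonic lengths and positions came from GENCODE M21 (GRCm38). The floor for 0 reads is 3 reads, for counting error only.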

Additional observations from a re-analysis of the deposited data

How the results depend on the processing

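Of the fold changes recomputed for single genes, 10 turned in sign, all of genes that had not passed. Fosb gave 0.05 without KO replicate 1 and 0.92 without WT replicate 1 (range over left-out libraries -1.49 to 0.92), and Egr1 gave -0.24 without WT replicate 2 (-0.24 to 0.98). Ier2 gave -0.15 when scaled to the library total, -0.18 without KO replicate 2 and -0.09 without WT replicate 2 (-0.18 to 0.27). Fosl2 gave -0.13 when scaled to the library total, -0.18 without KO replicate 2 and -0.07 without WT replicate 1 (-0.18 to 0.32), and Fosl1 gave -0.24 without WT replicate 2 (-0.24 to 1.45). The cause was not tested. The 3 immediate early genes called higher and the 1 called lower kept those counts under both other pseudocounts, both other filters, TMM and upper-quartile scaling and edgeR. The number lower was 2 when scaled to the library total, with DESeq2 and with the replicate block, which add Nr4a1. With the replicate block the number higher was 2. The replicate numbers are shared only as numbers, and the correlation of the replicate differences between the groups was -0.009 over genes, so the block pairs nothing known. Leaving out each library gave 0 to 4 higher and 0 to 2 lower. Those fits assume that a lone library varies like the other group and have fewer degrees of freedom, and the lowest counts came without WT replicate 2 (0 higher and 0 lower in limma, or 2 and 1 at an unadjusted p under 0.05).

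For the other lists, leaving out each library gave 1 to 12 higher and 1 to 10 lower for other immediate early genes, 1 to 6 higher and 0 to 0 lower for other AP-1 genes, and 1 to 5 higher and 0 to 2 lower for phosphatases and feedback inhibitors. It gave 2 to 8 higher and 2 to 8 lower for upstream genes, 1 to 4 higher and 0 to 4 lower for secondary response genes, and 0 to 3 higher and 1 to 5 lower for heat shock genes. The 1 AP-1 gene called lower, Mafg, was lost under upper-quartile scaling, the replicate block and the absence of a filter (0 lower in limma, 1 at an unadjusted p, and 1 with edgeR and DESeq2). Upstream genes had 6 higher with the replicate block. Scaled to the library total, the upstream list had 5 higher and 16 lower and heat shock genes had 2 higher. That scaling moved the median of all genes to -0.2. Of 16710 tested genes it called 2511 higher and 5535 lower (31.2% of calls higher). With the deposited size factors these counts were 3735 and 4074 (47.8% of calls higher). Over all genes, leaving out each library gave 524 to 2846 higher and 1061 to 3434 lower.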
